A study of Homo sapiens with 9 samples.

Results

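RTN1, ARL6IP1 and 8 further genes whose products shape the membrane of the endoplasmic reticulum (ER) were followed in SH-Sy5y cells that received a mimic of the human microRNA miR-1229-3p. The set was a list of names, RTN1, RTN2, RTN3, RTN4, ARL6IP1, REEP5, ATL1, ATL2, ATL3 and LNPK, and all 10 were found among the 14943 genes measured. RTN1 and ARL6IP1 were selected on their change with the mimic in these same libraries, in which they were lower, and on matches to its seed, so their levels and sites are given as a description with no test. The other 8 genes were tested.

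SH-Sy5y is a human neuroblastoma line, and its polyadenylated RNA was sequenced 48 h after lipofection. The 3 libraries of the control group (Ctrl.) received 40 pmol of a negative control oligonucleotide and no mimic. The 3 libraries of the 10 nM group received 20 pmol of the mimic together with 20 pmol of the control oligonucleotide, and the 3 libraries of the 20 nM group received 40 pmol of the mimic and none of the control oligonucleotide. Each group thus received the same amount of small RNA, and 20 nM against Ctrl. compares the mimic with the control oligonucleotide as well as with no mimic. Nothing in the sources used here says that the 3 libraries of a group came from separate cultures, so p-values measure the spread between these libraries, which may be technical. RNA of a pair of wells was pooled where possible, and in such bulk RNA fewer cells of a type and less RNA per cell cannot be told apart.

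The ER is a continuous membrane of flat sheets and thin branching tubules. Reticulons, REEP5 and ARL6IP1 sit in the membrane with hairpin segments that bend it, and they keep tubules and the edges of sheets curved. Atlastins are GTPases that fuse tubules to each other, and lunapark, the product of LNPK, sits at the junctions where tubules meet. Reticulons are abundant in neurons, whose axons hold long ER tubules, and mutations in RTN2, ARL6IP1 and ATL1 cause hereditary spastic paraplegia, a disease of long motor axons. A microRNA lowers transcripts mainly through sites in the 3′ UTR that pair with its seed.

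The mature miR-1229-3p is shown because its seed, bases 2 to 8 and printed in capitals, sets which sites were searched. It is encoded on chromosome 5 at chr5:179798278-179798300 on the minus strand (RefSeq, GRCh38.p14).
miR-1229-3p: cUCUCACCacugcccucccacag
The sense strand of each gene's longest 3′ UTR (GENCODE 44, GRCh38.p14) was searched for GGTGAGAA (8-mer), for GGTGAGA without the last A (7-mer pairing with bases 2 to 8), for GTGAGAA without the first G (7-mer pairing with bases 2 to 7 before an A) and for GTGAGA alone (6-mer). Each match was counted once, under its longest form. The 5 matches found separate the 4 genes that carry a site in the 3′ UTR from the 6 that carry none there. Of these matches, 4 are given here with the matching bases in capitals to show both kinds of 7-mer.
RTN1: aagtgcatgatGGTGAGAgcccaagttatc
REEP5: aagtgaacaaaGTGAGAAatgaaatcgaat
LNPK first site: acgaattctcaGTGAGAAtgcaatgaaaca
LNPK second site: aaacaaattttGTGAGAAtaggtagtgggt

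RTN1 and ARL6IP1 each carried a 7-mer that pairs with bases 2 to 8. The RTN1 site lay at chr14:59596477-59596483 on the minus strand, bases 262 to 268 of a UTR of 768 bases, and was present in 3 of 3 coding transcripts. The ARL6IP1 match was present in 1 of 3 coding transcripts. REEP5 and LNPK carried the other kind of 7-mer, which pairs with 1 base fewer and is followed by an A. The REEP5 site lay at chr5:112878143-112878149, bases 637 to 643 of 2401. The LNPK sites lay at chr2:175929358-175929364 and chr2:175928844-175928850, bases 603 to 609 and 1117 to 1123 of 6085, these 3 on the minus strand. The 3′ UTRs of RTN2, RTN3, RTN4, ATL1, ATL2 and ATL3 held none of the 4 motifs, the 6-mer included. Outside the 3′ UTR, the coding sequence of the canonical ATL2 transcript held 1 match of 7 or 8 bases, and those of the other genes held none.

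A 7-mer or 8-mer was found in 22.8% of the 13082 longest 3′ UTRs of measured genes, and the share rose with UTR length. Among UTRs within 10% of the length of that of RTN1, 10% held a 7-mer or 8-mer, and among those near ARL6IP1 in length 18.7% did. For REEP5 the share was 27.2% and for LNPK 58.5%. The UTR of ATL3, at 5232 bases the second longest in the set, held no match, whereas 51.9% of UTRs of like length did. A match is a description of the letters and not a measured site.

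**Figure D1:**
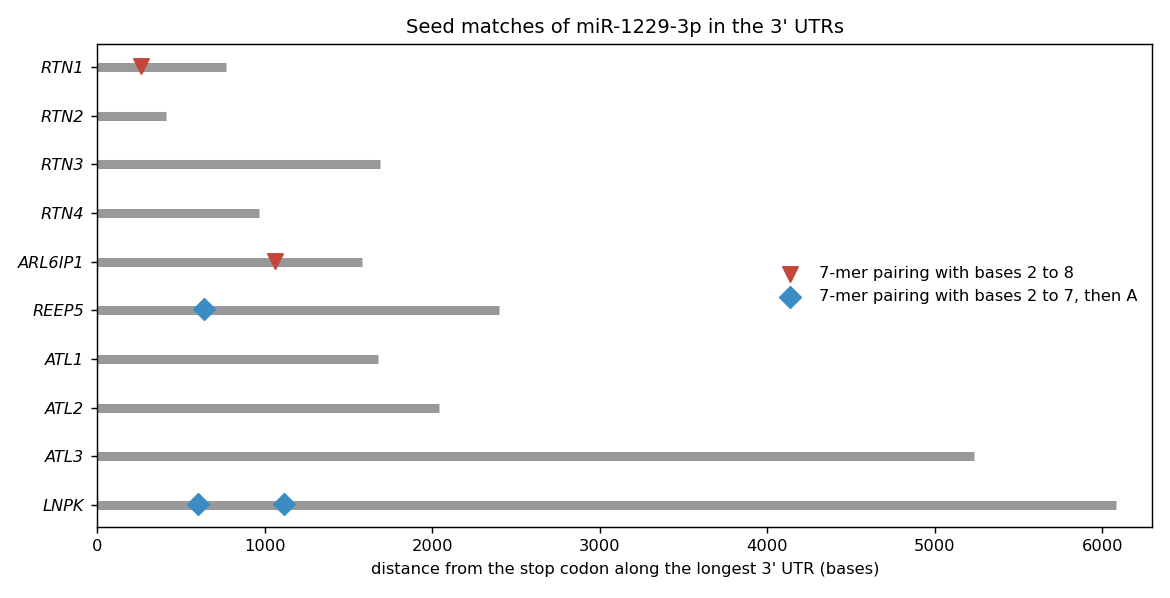
Longest 3′ UTR of each of the 10 genes, drawn to scale in bases from the stop codon, with triangles for 7-mers that pair with bases 2 to 8 of miR-1229-3p and diamonds for 7-mers that pair with bases 2 to 7 before an A. RTN1 and ARL6IP1 carry 1 triangle each, REEP5 carries 1 diamond and LNPK 2, and the other 6 UTRs carry no match.

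The libraries held from 17423805 to 28192613 estimated counts on genes, and the 10 genes each had between 355 (ATL1) and 9367 (RTN4) counts in a library. Replicate 3 of 20 nM stood apart from the other 8 libraries, at 47.4 on the first principal component against -17.1 to 7.72. Levels are given as CPM, counts relative to the TMM-scaled library total and otherwise uncorrected, whereas log2 fold changes come from a fit with 1 surrogate variable, a covariate for unexplained variation between libraries, so both can differ where that library is far from the others. Of 7 markers of noradrenergic neuroblastoma cells, 6 had Ctrl. means between 227 and 1510 CPM, whereas TH, the tyrosine hydroxylase of catecholamine synthesis, was at 0.598 CPM. Of 6 mesenchymal markers tested, TWIST1 (414 CPM) and FN1 (116 CPM) were high and the other 4 lay between 1.36 and 10.6 CPM in Ctrl. At 20 nM, 3 of the 7 noradrenergic markers (ISL1 and TH among them) were lower and 1 of the 6 mesenchymal markers (CD44, from 1.36 to 3.18 CPM) was higher in edgeR's test, beside 6.08% and 7.8% of all genes. With the replicate block in place of the surrogate variable 2 noradrenergic markers were lower and 1 higher, and with neither 2 were lower. Their part in the results below was not tested.

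RTN1, the reticulon most restricted to neurons and neuroendocrine cells, was at 183, 193 and 201 CPM in the Ctrl. libraries. It was at 156, 149 and 156 CPM with 10 nM and at 121, 126 and 140 CPM with 20 nM (129 ± 9.38, SD, n = 3, against 193 ± 8.91 in Ctrl.). The 3 groups did not overlap, and every library of a higher concentration lay below every library of a lower one. Of all genes, 9.9% lay wholly below Ctrl. at 10 nM and 13.7% at 20 nM. Between the concentrations 6.32% lay wholly lower at 20 nM. The fitted log2 change was -0.34 (SE 0.0439) at 10 nM and -0.65 (SE 0.0512) at 20 nM, and the step from 10 to 20 nM was -0.31 (SE 0.0481). Leaving out any 1 library moved the change at 20 nM between -0.69 and -0.61.

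ARL6IP1, a small hairpin protein that is found at ER tubules and binds atlastins, was at 222, 230.0 and 234 CPM in Ctrl. It was at 157, 166 and 177 CPM with 10 nM and at 146, 151 and 144 CPM with 20 nM. These 3 groups did not overlap either, but most of the difference was already present at 10 nM, where the mean was 167 CPM against 229 in Ctrl. and 147 at 20 nM. The fitted log2 change was -0.46 (SE 0.0494) at 10 nM and -0.64 (SE 0.0572) at 20 nM, with a step of -0.18 (SE 0.0536) between them. Replicate 3 of 20 nM, which stood apart over all genes, was at 144 CPM beside 146 and 151 in the other libraries of its group. Without any 1 library the change at 20 nM ran from -0.68 to -0.63.

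**Figure D2:**
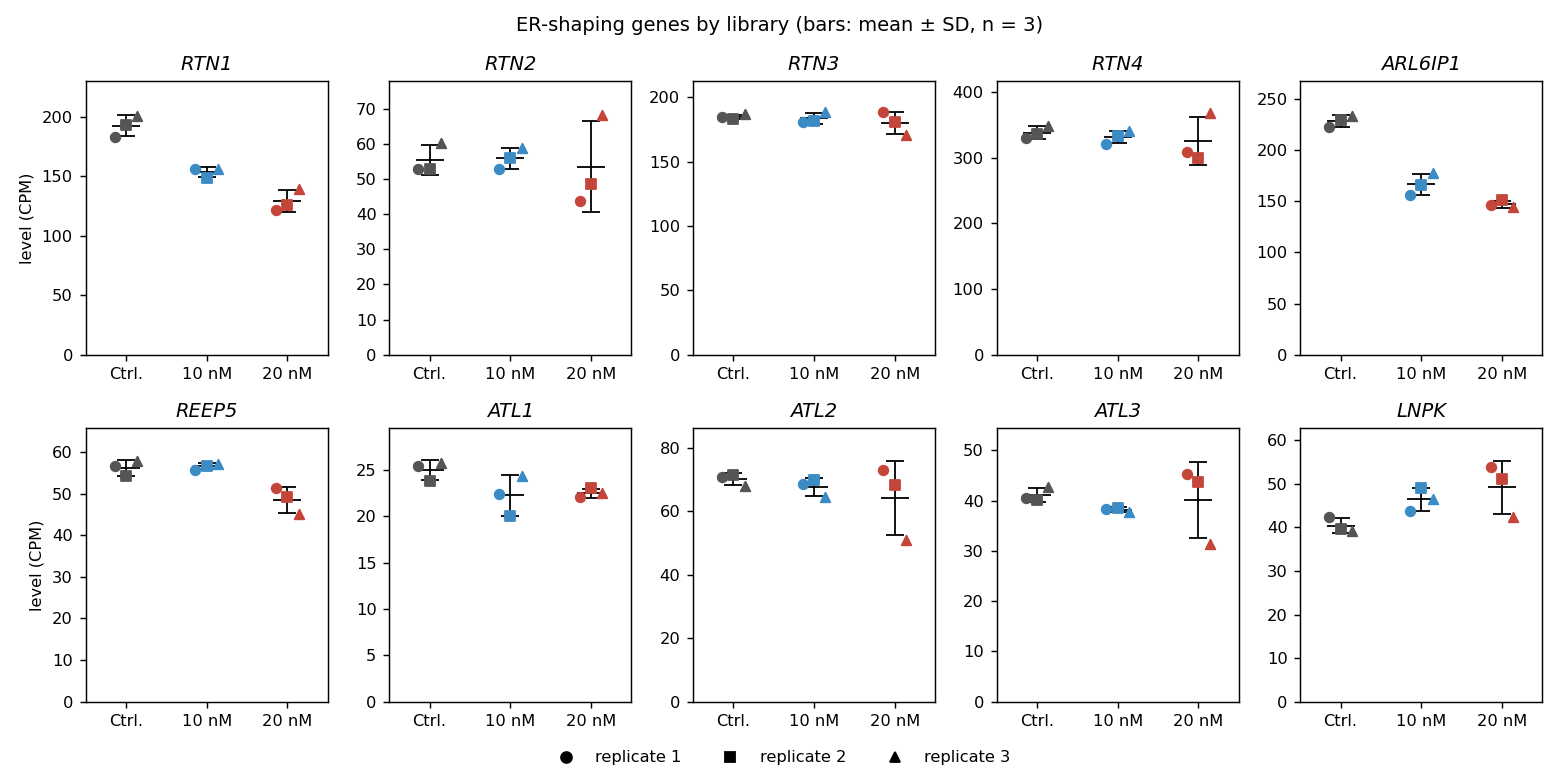
Level of each gene in CPM (vertical axes from 0) in the 3 libraries of Ctrl., 10 nM and 20 nM, with a symbol for each replicate number and bars for the mean ± SD (n = 3). RTN1 and ARL6IP1 step down with no overlap between groups, LNPK has its 10 nM libraries above all Ctrl. libraries, and replicate 3 of 20 nM lies far from the other 20 nM libraries for RTN2, RTN4, ATL2 and ATL3.

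The other reticulons gave a different picture from RTN1. RTN3, which also acts as a receptor for the removal of ER tubules by autophagy, was at 185, 183 and 187 CPM in Ctrl. and at 189, 181 and 171 CPM with 20 nM. The groups overlapped, and the fitted log2 change was 0.000429 at 10 nM (95% interval -0.09 to 0.09, adjusted p = 0.998) and 0.000707 at 20 nM (-0.10 to 0.10, adjusted p = 0.994) in edgeR's quasi-likelihood test. The ratio of RTN1 to RTN3 counts, given to follow it between groups and not as a comparison of their levels, was 1.04 ± 0.0447 in Ctrl., 0.836 ± 0.0212 with 10 nM and 0.719 ± 0.088 with 20 nM (SD, n = 3). It is taken within a library and does not depend on the scaling of libraries. Of all reticulon counts, RTN1 made up 24.9% in Ctrl. (24.4 to 25.2%), 21.2% with 10 nM (20.7 to 21.9%) and 18.7% with 20 nM (18.3 to 19.2%), again with no overlap between groups. This share and the ratio to RTN3 are a description only, since RTN1 was selected on its change.

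RTN4, known as Nogo for its role in halting neurite growth, was at 330, 337 and 349 CPM in Ctrl. and at 322, 334 and 340 CPM with 10 nM. With 20 nM, 2 libraries were below all others at 309 and 300 CPM, and replicate 3 was above all others at 369 CPM. The fitted log2 change of RTN4 was -0.06 at 10 nM (95% interval -0.14 to 0.03, adjusted p = 0.528) and -0.17 at 20 nM (SE 0.0449, adjusted p = 0.0237, edgeR's quasi-likelihood test). The call at 20 nM was lost with no surrogate variable (-0.06, adjusted p = 0.696) and with a block for the replicate number instead (-0.06, adjusted p = 0.546), and also without replicate 3 of Ctrl. (adjusted p = 0.0597) or replicate 1 (0.0665) or 2 (0.153) of 20 nM, and with the compared groups alone (-0.13, adjusted p = 0.064). It held without replicate 3 of 20 nM (adjusted p = 0.0205).

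RTN2, a reticulon of muscle and neurons, was at 52.9, 53.0 and 60.4 CPM in Ctrl. and at 53.0, 56.0 and 59.0 CPM with 10 nM. With 20 nM it was at 43.8 and 48.6 CPM in replicates 1 and 2, below every Ctrl. and 10 nM library, and at 68.2 CPM in replicate 3, above them all. Its fitted log2 change was -0.05 at 10 nM (95% interval -0.16 to 0.06, adjusted p = 0.694) and -0.32 at 20 nM (SE 0.0594, adjusted p = 0.00388, edgeR's quasi-likelihood test). RTN2 was also lower at 20 nM than at 10 nM (-0.27, SE 0.0564, adjusted p = 0.0248), a call lost with no surrogate variable (-0.06, adjusted p = 0.891), with the replicate block in its place (-0.08, adjusted p = 0.702) and without replicate 1 (0.0557), 2 (0.068) or 3 (0.0983) of 10 nM or replicate 1 (0.318) or 2 (0.0749) of 20 nM. The call against Ctrl. was lost with no surrogate variable (-0.05, adjusted p = 0.847), with the replicate block in its place (-0.07, adjusted p = 0.661) and without replicate 1 of 20 nM (-0.20, adjusted p = 0.0987), and it held without replicate 3 of 20 nM (adjusted p = 0.0112).

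LNPK was the member that rose. It was at 42.4, 39.6 and 39.2 CPM in Ctrl., at 43.8, 49.0 and 46.5 CPM with 10 nM and at 54.0, 51.2 and 42.4 CPM with 20 nM. All 10 nM libraries lay above all Ctrl. libraries, while replicate 3 of 20 nM was level with the highest Ctrl. library. The fitted log2 change was 0.23 at 10 nM (SE 0.0605, adjusted p = 0.115) and 0.40 at 20 nM (SE 0.0671, adjusted p = 0.00214), and 0.36 per 20 nM over the 3 groups (adjusted p = 0.00161, edgeR's quasi-likelihood test). The call at 20 nM held without any 1 library (adjusted p from 0.000978 to 0.037), but missed the threshold with no surrogate variable (0.28, adjusted p = 0.0904) and with the replicate block in its place (0.28, adjusted p = 0.0571). The trend missed it with no surrogate variable (0.28, adjusted p = 0.0705).

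REEP5, a curvature protein of tubules and a partner of reticulons and atlastins, was at 56.5, 54.2 and 57.8 CPM in Ctrl. and at 55.8, 56.6 and 57.2 CPM with 10 nM. With 20 nM it was at 51.2, 49.2 and 45.0 CPM. The 20 nM libraries lay below all others, replicate 3 lowest, while Ctrl. and 10 nM overlapped. The fitted log2 change of REEP5 was 0.02 at 10 nM (95% interval -0.08 to 0.13, adjusted p = 0.881) and -0.16 at 20 nM (-0.28 to -0.04, adjusted p = 0.0773), which missed the threshold in edgeR's test over all libraries. It passed without replicate 3 of 20 nM (-0.17, adjusted p = 0.0445), with the compared groups alone (-0.18, adjusted p = 0.0421) and with block and surrogate variable together (-0.14, adjusted p = 0.0444). The change missed the threshold with no surrogate variable (-0.21, adjusted p = 0.0829) and with the replicate block in its place (-0.21, adjusted p = 0.06). The ratio of ARL6IP1 to REEP5 counts was 4.07 ± 0.163 in Ctrl., 2.95 ± 0.146 with 10 nM and 3.04 ± 0.177 with 20 nM (SD, n = 3), a description only, since ARL6IP1 was selected on its change.

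None of the 3 atlastins passed edgeR's quasi-likelihood test over all libraries with 1 surrogate variable in any comparison. ATL3 at 20 nM against 10 nM (0.19, adjusted p = 0.126 in that test) passed the threshold in 1 alternative fit. That fit, with block and surrogate variable together, was added after the data were seen. It called 10.2% of all genes in this comparison, beside 2.79% with 1 surrogate variable alone. ATL1, the atlastin of neurons, was at 25.5, 23.8 and 25.7 CPM in Ctrl., at 22.5, 20.0 and 24.4 CPM with 10 nM and at 22.1, 23.0 and 22.5 CPM with 20 nM. Its 20 nM libraries lay just below all Ctrl. libraries, and the fitted log2 changes of -0.17 (95% interval -0.34 to -0.00, adjusted p = 0.353) and -0.16 (-0.35 to 0.03, adjusted p = 0.256, edgeR's quasi-likelihood test) were of like size at both concentrations. ATL2 and ATL3, the atlastins of most tissues, were set apart by 1 library. ATL2 was at 68.0 to 71.5 CPM in Ctrl., 64.6 to 70.04 with 10 nM and 73.2, 68.3 and 51.1 with 20 nM. ATL3, which is also an autophagy receptor for tubules, was at 40.1 to 42.7 CPM in Ctrl., 37.7 to 38.6 with 10 nM and 45.3, 43.8 and 31.4 with 20 nM. In both genes the lowest of the 9 libraries was replicate 3 of 20 nM, where RTN2 and RTN4 had their highest. The fitted log2 change at 20 nM was 0.04 for ATL2 (95% interval -0.06 to 0.15, adjusted p = 0.614) and 0.14 for ATL3 (-0.00 to 0.28, adjusted p = 0.183, edgeR). Over the 9 libraries Pearson's r of log2 CPM was 0.859 between ATL2 and ATL3 and -0.817 between RTN2 and ATL3, values that share that library and are given as a description.

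**Figure D3:**
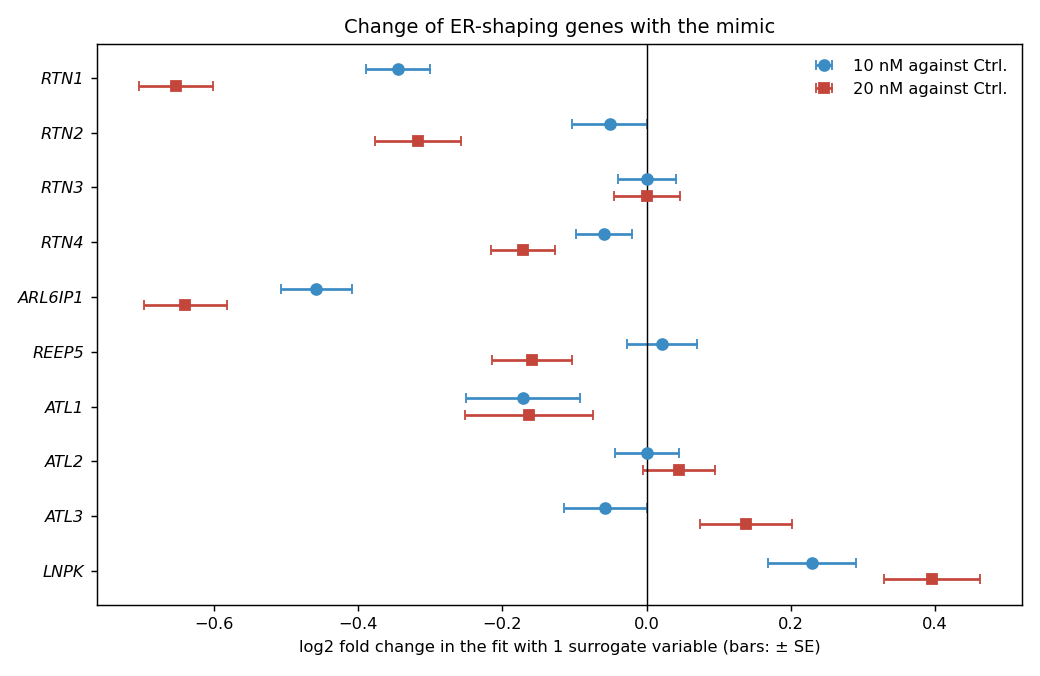
Fitted log2 fold change of each gene against Ctrl. at 10 nM (circles) and 20 nM (squares), with bars for ± SE from the fit over 9 libraries with 1 surrogate variable. RTN1 (-0.34 and -0.65) and ARL6IP1 (-0.46 and -0.64) lie farthest to the left, LNPK (0.23 and 0.40) farthest to the right, and RTN3 sits on 0 at both concentrations.

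At 10 nM, 0 of the 8 tested genes passed an adjusted p of 0.05 in edgeR's test, where 0.649% of all genes did (0.428% lower and 0.221% higher), and DESeq2 called 0 as well. At an unadjusted p under 0.05, 1 was lower (ATL1) and 1 higher (LNPK), beside 6.71% and 7.23% of all genes. At 20 nM, 2 were lower (RTN2 and RTN4) and 1 higher (LNPK), where 13.9% of all genes were called, 6.08% lower and 7.8% higher. The median log2 change of the 8 genes was -0.03 at 10 nM and -0.08 at 20 nM, beside 0.000468 and -0.000161 over all genes. Between 20 and 10 nM, 1 of 8 (RTN2) was lower, where 2.79% of all genes were called and 0.883% were lower. In the trend over concentration the calls were again RTN2 (-0.22 per 20 nM, adjusted p = 0.0291) and RTN4 (-0.13, adjusted p = 0.0444) lower and LNPK higher, beside 17.6% of all genes (7.64% lower and 9.92% higher), and REEP5 missed the threshold with 1 surrogate variable (-0.17, adjusted p = 0.0663) and passed it with 2 (-0.19, adjusted p = 0.0362) and among genes with a mean of at least 1 CPM (-0.18, adjusted p = 0.0459). The trend calls of RTN2 and RTN4 were lost with the replicate block in place of the surrogate variable (-0.07, adjusted p = 0.644, and -0.06, adjusted p = 0.52) and with neither (adjusted p = 0.836 and 0.672). The RTN2 trend was also lost without replicate 3 of Ctrl. (adjusted p = 0.092) or replicate 1 (0.643) or 2 (0.0796) of 20 nM, and that of RTN4 without replicate 2 (0.0959) or 3 (0.0906) of Ctrl., replicate 1 of 10 nM (0.0582) or replicate 1 (0.219) or 2 (0.214) of 20 nM. Counting every alternative, the RTN2 trend was lost in 6 and the RTN4 trend in 8. The 10 nM and 20 nM comparisons share their Ctrl. libraries.

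By the uncorrected levels, of the 8 tested genes ATL3 lay wholly below Ctrl. at 10 nM, as did 9.9% of all genes, and LNPK wholly above, as did 10.1%. At 20 nM REEP5 and ATL1 lay wholly below Ctrl., beside 13.7% of all genes, and LNPK lay above by a narrow margin, beside 15.2%. Between the concentrations REEP5 lay wholly lower at 20 nM, beside 6.32% of all genes, and 0 of the 8 lay wholly higher, beside 7.92%. ATL3 and ATL1 were not called in those comparisons, and RTN2 and RTN4, which were called at 20 nM, overlapped Ctrl. through replicate 3 of 20 nM.

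The calls at 20 nM differed between fits. Without replicate 3 of 20 nM, 4 of the 8 genes were called (RTN2, RTN4 and REEP5 lower, LNPK higher), beside 17.8% of all genes. With all 9 libraries and no surrogate variable 0 were called, beside 6.38% of all genes, and with the replicate block in its place 0 were called, beside 13.6%, although 1 was lower and 1 higher at an unadjusted p under 0.05 in both fits. With the block and the surrogate variable together, an alternative added after the data were seen, 4 were called, where the share of all genes called was 28.4%. With no surrogate variable the change of RTN1 was -0.58 and that of ARL6IP1 -0.64, as the plot of the change at 20 nM in 4 fits shows.

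**Figure D4:**
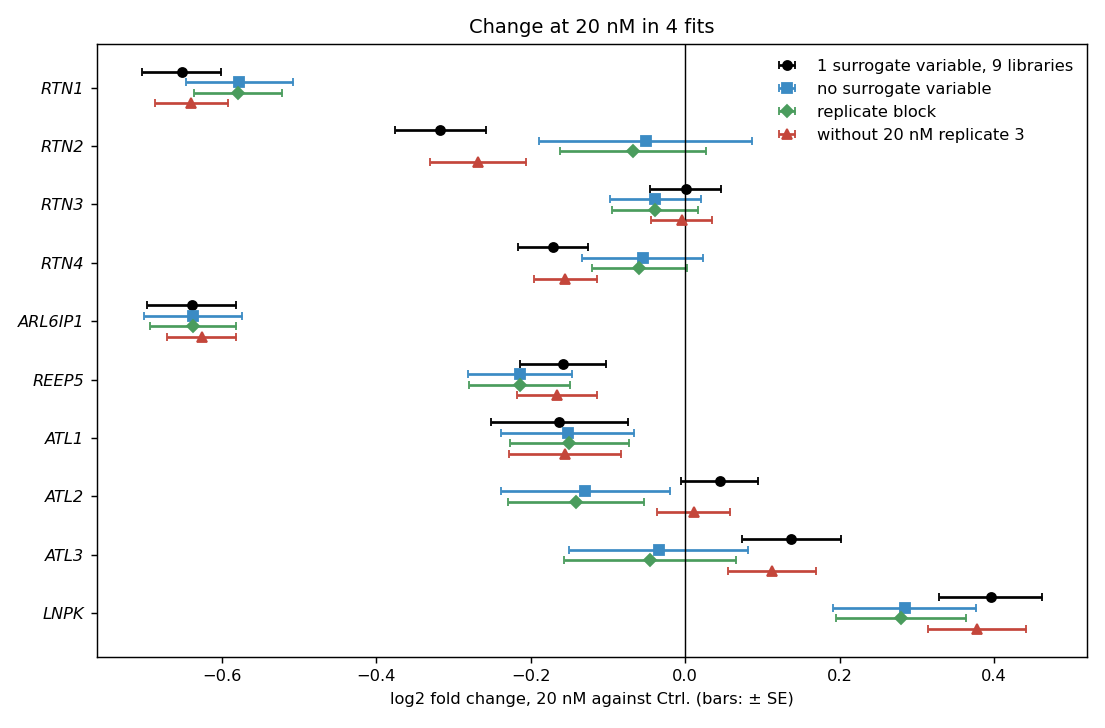
Log2 fold change at 20 nM against Ctrl. (horizontal axis, bars ± SE) of each gene in 4 fits: with 1 surrogate variable (black circles), with none (blue squares), with the replicate block in its place (green diamonds) and without replicate 3 of 20 nM (red triangles). RTN2 is at -0.32 in the first and at -0.05 with no surrogate variable. RTN3, ATL2 and ATL3 change sign, and ARL6IP1 lies between -0.64 and -0.63 in all 4.

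Per kilobase of the canonical transcript, the scale on which levels of different genes can be set side by side, ARL6IP1 was the highest of the set in Ctrl. at 100 ± 2.55 CPM per kb, followed by RTN4 (72.1 ± 1.98), RTN1 (59.5 ± 2.75), RTN3 (37.6 ± 0.326) and RTN2 (24.4 ± 1.9). REEP5 (18.7 ± 0.616) and ATL2 (18.4 ± 0.486) overlapped. ATL1 (9.98 ± 0.421), ATL3 (5.96 ± 0.201) and LNPK (5.35 ± 0.234) were the lowest. With 20 nM, ARL6IP1 (64.5 ± 1.54) was no longer separated from RTN4 (69.4 ± 7.91), and RTN1 (39.8 ± 2.9) overlapped RTN3 (36.6 ± 1.79) but had the higher mean. LNPK (6.52 ± 0.8) and ATL3 (5.82 ± 1.1) also overlapped there. The canonical transcript need not be the one these cells use.

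Of the 5 genes whose log2 CPM followed RTN1 most closely over the 9 libraries, among those with a mean of at least 10 CPM, 4 are named here, BRI3 (r = 0.986), AMOTL1 (0.986), ASB1 (0.984) and GPAT4 (0.981). BRI3 (3′ UTR of 302 bases) and ASB1 (5739 bases) carried an 8-mer in the 3′ UTR, AMOTL1 (5953 bases) a 7-mer and GPAT4 (4000 bases) no match. For ARL6IP1 they were EIF4G2 (r = 0.990), an initiation factor that went from 1140 CPM in Ctrl. to 652 with 10 nM and 489 with 20 nM, then IGFBPL1 (0.989), BCL7B (0.978), MED1 (0.977) and IRGQ (0.977). EIF4G2 (766 bases) and IRGQ (7659 bases) carried an 8-mer, IGFBPL1 (2699 bases) a 7-mer, and BCL7B (942 bases) and MED1 (3190 bases) no match. An 8-mer was found in 4.64% of the longest 3′ UTRs of measured genes, and the share of UTRs with a match rose with length, as given above. These neighbours follow genes that were selected on their change with the mimic, and the paper names EIF4G2 itself among putative targets. Their matches are therefore a description. RTN1 and ARL6IP1 correlated with each other at 0.942, in place 38 of 10508 genes for RTN1 and 31 for ARL6IP1. All these values share the same 3 groups of libraries.

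Of 21 other genes that give the ER its shape, 3 were lower and 4 higher in the trend over concentration, beside 7.64% and 9.92% of all genes, with a median log2 change of 0.03 per 20 nM. The list was chosen with earlier results of these data known, so these counts are a description. RRBP1, a ribosome-binding protein of sheets, rose by 0.27 (adjusted p = 0.00295), from 53.1 CPM in Ctrl. to 57.2 and 62.3, and CKAP4, a spacer protein of the sheet lumen, rose by 0.20 (adjusted p = 0.012). RAB18, a GTPase of the ER and lipid droplets, rose by 0.32 (adjusted p = 0.00353), and REEP3, which clears ER from mitotic chromosomes, rose by 0.30 (adjusted p = 0.0303). TMCC2 fell by 0.37 (adjusted p = 0.00896), ZFYVE27, the spastic paraplegia protein protrudin, fell by 0.23 (adjusted p = 0.0219), and REEP1, another spastic paraplegia protein of tubules, fell by 0.48 (adjusted p = 0.0273, all from edgeR), from 9.47 to 6.93 CPM. REEP1 carried a 7-mer that pairs with bases 2 to 8, RAB18 carried 2 matches of 7 or 8 bases, the stronger of that same kind, and the other 5 had no 7-mer or 8-mer. As for RTN2 and ATL2, replicate 3 of 20 nM lay apart for TMCC2 (30.6 CPM beside 21.6 and 24.1) and REEP3 (46.0 beside 74.6 and 61.0). Without that library 3 were lower and 4 higher (17% of all genes called), with no surrogate variable 0 and 2 (8.27%), and with the replicate block in its place 1 and 3 (16.4%).

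Genes of contact sites between the ER and other membranes were mostly higher where they passed the test. This list too was chosen with earlier results of these data known, so its counts beside the shares of all genes are a description. Of 23, 8 were higher and 0 lower in the trend over concentration, beside 9.92% and 7.64% of all genes, with a median of 0.12 (DESeq2 called 7 higher and 1 lower). At an unadjusted p under 0.05 11 were higher and 1 lower, beside 16.6% and 14.7% of all genes. The inositol trisphosphate receptors ITPR1 (0.27, adjusted p = 0.00142) and ITPR2 (0.32, adjusted p = 0.00361), which release calcium from the ER, and ESYT2 (0.21, adjusted p = 0.00413), a tether to the plasma membrane, rose in edgeR's test. At 20 nM against Ctrl. 6 were higher and 1 lower (GRAMD1A, named after its value was seen), beside 7.8% and 6.08% of all genes. The counts of higher genes in the trend were 7 without replicate 3 of 20 nM, 7 with the replicate block in place of the surrogate variable and 4 with no surrogate variable. Of all genes, 17%, 16.4% and 8.27% were called in these fits, higher or lower.

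Of 8 receptors of ER autophagy outside the set, 0 passed the test in the trend (median 0.02 per 20 nM). At an unadjusted p under 0.05 2 of them were higher and 0 lower, beside 16.6% and 14.7% of all genes, and DESeq2 called 0. Of 6 tested receptors and partners of reticulons 0 passed (median 0.20), 2 were higher at an unadjusted p under 0.05, and DESeq2 called 0. In the trend edgeR called 17.6% of all genes and DESeq2 17%. With the replicate block in place of the surrogate variable 1 gene of each of these groups was called higher, where 16.4% of all genes were called. At 10 nM edgeR called 0 genes in each of these 4 groups, beside 0.649% of all genes. At an unadjusted p under 0.05, 6 of the other ER-shaping genes (28.6%) and 6 of those of contact sites (26.1%) were higher. So were 1 of the receptors of ER autophagy (12.5%) and 0 of the reticulon partners, beside 7.23% of all genes. DESeq2 called 1 of the other ER-shaping genes and 0 in each of the remaining groups, beside 1.37% of all genes.

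**Figure D5:**
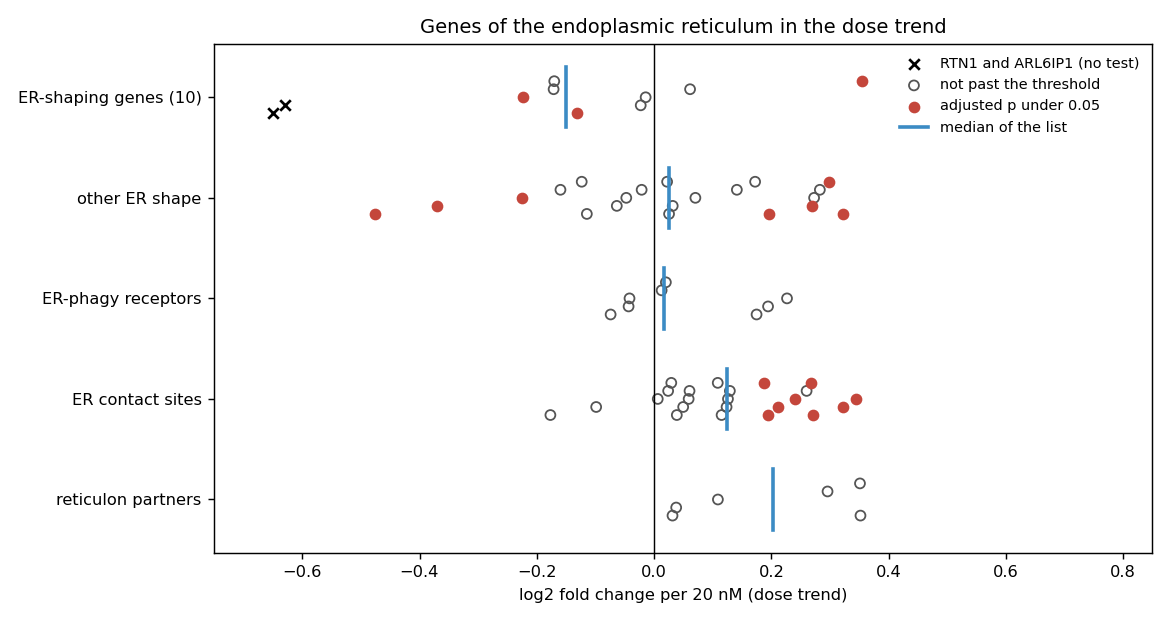
Log2 fold change per 20 nM in the trend over concentration (horizontal axis) of each gene in 5 groups of ER genes, with filled points for an adjusted p under 0.05, open points for the rest, crosses for RTN1 and ARL6IP1, which were not tested, and a vertical bar for the median of the group. The 8 filled points among contact site genes all lie to the right of 0, the other ER-shaping genes have filled points on both sides, and the receptors of ER autophagy and the reticulon partners have none.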

How the data were processed

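The authors sequenced polyadenylated RNA as paired ends, mapped it with salmon onto GRCh38.p13 with Ensembl 107, aggregated transcripts per gene symbol and filtered with filterByExpr. They deposited expected counts per gene, of which 88.8% are not whole, for 14943 genes and 9 libraries. Whether strand was used is not given in the sources used here, so overlapping and antisense genes can exchange reads. Deposited log2 values, which the authors had adjusted by SVA, served only as values in the closing section, and the authors' tables of fold changes and p-values were not used here.

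Counts were rounded and tested with edgeR 4.0.16 in R 4.3.3, with TMM scaling and quasi-likelihood tests over all 9 libraries (3 per group), p-values adjusted over 14943 genes by Benjamini-Hochberg and called under 0.05. filterByExpr removed 0 further genes. Surrogate variables came from sva 3.50.0 on log2 CPM (prior count 2), held between 1 and 3, which gave 1 in the fit by group and in the fit by concentration (0, 10 and 20 nM as a number). Standard errors were obtained by dividing each log2 fold change by the square root of F. The procedure was tested on simulated data. Groups and replicate numbers came from sample titles. Deviations of same-numbered libraries from their group means correlated at 0.116, 0.107 and 0.116 between Ctrl. and 20 nM and at 0.177, 0.142 and 0.185 between Ctrl. and 10 nM, all over 0.1, so the replicate block is printed beside those results. Between 10 and 20 nM they correlated at 0.174 for replicate 1, 0.0288 for replicate 2 and 0.176 for replicate 3, so only replicate 2 was under 0.1. The replicate block is printed for that comparison as well. Depth ran from 17423805 to 28192613 counts per library.

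Members and lists were chosen with earlier results of these data known. Of the other lists, genes past the threshold in the trend were named, up to 4 with the smallest adjusted p per direction, and for RTN1 and ARL6IP1 the 5 genes with the highest r. RTN4RL1 and PRRX1 were not tested. A few genes and 1 sequence that these rules name are not reported here. The 3′ UTRs, coordinates and canonical lengths came from GENCODE 44, since the deposited counts carry no coordinates. Alternatives were DESeq2 1.42.0, other scalings, filters and numbers of surrogate variables, the replicate block, the compared groups alone and leaving out each library.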

Additional observations from a re-analysis of the deposited data

Results flagged for a closer look

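RTN2 stood out because its change differed between the concentrations when the difference itself was tested. Its level at 20 nM against 10 nM differed by a log2 value of -0.266 (edgeR's quasi-likelihood test, adjusted p = 0.0248), after -0.05 from Ctrl. to 10 nM. The difference was -0.06 (adjusted p = 0.891) with no surrogate variable and -0.08 (adjusted p = 0.702) with the replicate block in its place. It missed the threshold without replicate 1 (adjusted p = 0.0557), 2 (0.068) or 3 (0.0983) of 10 nM and without replicate 1 (0.318) or 2 (0.0749) of 20 nM. In replicate 3 of 20 nM RTN2 was at 68.2 CPM, beside 43.8 and 48.6 CPM in the other libraries of the group.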

How the results depend on the processing

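RTN1 and ARL6IP1 kept their direction in every alternative. The count of the 8 tested genes called at 20 nM (3), between concentrations (1) and in the trend (3) was 0, 0 and 0 with no surrogate variable and 0, 0 and 1 with the replicate block in its place. With block and surrogate variable together, added after the data were seen, the counts were 1 at 10 nM, 4 at 20 nM, 3 between concentrations and 2 in the trend. Leaving out each library gave 0 to 0 at 10 nM, 1 to 4 at 20 nM, 0 to 1 between concentrations and 1 to 4 in the trend. In the trend REEP5 was gained without replicate 2 of Ctrl. (0.0316), replicate 3 of 10 nM (0.0389) or replicate 1 of 20 nM (0.0496, all edgeR). DESeq2, library totals and DESeq2's size factors left the 4 counts as they were. The reversed values all belong to genes that edgeR did not call in that comparison. With no surrogate variable and with the block in its place they were, as log2 changes, 0.013 and 0.0172 for RTN2 at 10 nM, -0.0101 and -0.0101 for RTN3 at 10 nM, -0.0385 and -0.0389 for RTN3 at 20 nM, -0.0284 and -0.0288 for RTN3 between concentrations, -0.0492 and -0.0518 for ATL2 at 10 nM, -0.129 and -0.141 for ATL2 at 20 nM, -0.0799 and -0.0891 for ATL2 between concentrations, -0.0342 and -0.0457 for ATL3 at 20 nM and -0.0344 and -0.0459 for ATL3 in the trend. With the compared groups alone they were 0.0115 (RTN2, 10 nM), -0.0117, -0.0168 and -0.00152 (RTN3 at 10 nM, 20 nM and between them) and -0.0503 and -0.0331 (ATL2 at 10 and 20 nM). With a mean of at least 1 CPM they were -0.000846, -0.00446 and -0.00361 for RTN3 in these comparisons and -0.000964 for ATL2 at 10 nM. RTN3 at 20 nM and between concentrations reversed with library totals (-0.00596 and -0.0069), size factors (-0.00182 and -0.00537) and DESeq2 (-0.00188 and -0.00533), and ATL2 at 10 nM with 2 surrogate variables (-0.0120) and with block and surrogate variable (-0.0137, and -0.00535 at 20 nM). Leaving out each library, changes ran from -0.0215 to 0.0164, -0.051 to 0.00927 and -0.0442 to 0.0244 for RTN3 at 10 nM, 20 nM and between them, from -0.033 to 0.0125, -0.0503 to 0.0543 and -0.0283 to 0.0732 for ATL2, from -0.154 to 0.0194 for ATL2 and -0.0863 to 0.134 for ATL3 in the trend, from -0.00305 to 0.0497 for REEP5 at 10 nM and from -0.0619 to 0.0806 for ATL1 between concentrations. The cause of these changes was not tested. The 95% intervals of RTN3, -0.10 to 0.10 at 20 nM, show the size of change that this depth and number of libraries could not tell from 0.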

Other observations

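In the log2 table that the authors corrected for surrogate variables, which entered no test here, RTN1 had means of 12.2 in Ctrl., 11.9 with 10 nM and 11.6 with 20 nM, differences of -0.30 and -0.57 from Ctrl. ARL6IP1 differed from Ctrl. by -0.42 and -0.60 and LNPK by 0.16 and 0.27. RTN2 differed by 0.01 at 10 nM and by -0.16 at 20 nM, RTN4 by -0.03 and -0.12 and REEP5 by 0.01 and -0.14. RTN3 was within 0.02 of Ctrl. at both concentrations (-0.005 and -0.017). ATL1 differed by -0.11 at both, ATL2 by -0.03 at both, and ATL3 by -0.07 and 0.04.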
